A study of Mus musculus with 5 samples.

Results

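The genes described here are 10 members of the bone morphogenetic protein (BMP) pathway: the receptors Acvr1, Bmpr1a, Bmpr1b and Bmpr2, the signal-carrying Smads Smad1 and Smad5, the inhibitory Smads Smad6 and Smad7, and the target genes Id1 and Id3. They were chosen by name, out of 29818 gene symbols in the 5 matrices, after Acvr1 had been seen to be higher over all cells in every pup labelled mutant. All comparisons between the labels over all cells are therefore given as descriptions, and Acvr1 was not tested anywhere. Cells came from the proximal tibial and distal femoral growth plate cartilage of 5 littermate pups labelled C57BL/6J, 2 of them labelled wild type (WT) and 3 labelled mutant. The mutant pups carried 1 Trpv4 allele with the conditional p.R594H knock-in, which a Cre transgene under the Col2a1 promoter, a promoter of the chondrocyte lineage, switches on. The study's methods give a mixed B6;SJL origin, later crossed to C57BL/6J, for the Cre line. TRPV4 is a calcium-permeable ion channel, and activating mutations of its gene cause skeletal dysplasia. The sample labels give the age as postnatal day 5, whereas the series design states postnatal day 3. Each pup gave 1 library, and the sources used here do not say whether the WT pups carried the Cre transgene or the unrecombined allele.

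BMP ligands bind a complex of type I and type II serine/threonine kinase receptors. The type II receptor phosphorylates the type I receptor, which phosphorylates SMAD1, SMAD5 or SMAD9, and these enter the nucleus with SMAD4 to switch on targets such as the Id genes and the inhibitory Smads, which dampen the signal. In the growth plate this pathway is needed for chondrocyte formation, proliferation and hypertrophy.

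The libraries held between 117746735 and 183322632 UMIs (unique molecular identifiers, each standing for 1 captured RNA molecule), and 82516 cells were analysed, between 13814 and 19133 per pup. The median depth per cell was 8521 to 9261 UMIs in the WT pups and 6000 to 7016 in the mutant pups, so depth moved with the label and its part in the label comparisons was not tested. Pairs of libraries shared 3 to 7 cell barcodes. Trpv4 itself was 159.5 and 94.6 CPM (UMI counts scaled to the library total, for Trpv4 and Xist after TMM scaling) in the WT pups and 88.4, 160.2 and 178 CPM in the mutant pups, but a gene's total count does not show which allele was read. Xist, which is expressed from the inactive X chromosome, was 633 and 685 CPM in mutant pups 3 and 4 and below 1 CPM in the other pups, so sex moved in part with the label and its part in the label comparisons was not tested. Mutant pup 5 matched the WT pups in Xist.

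The cells fell into 40 clusters, of which 34 could be named from marker genes, and 8 named classes had at least 50 cells in every pup. The members, the other pathway genes and the dissociation response genes were left out of the clustering. Prg4, the lubricin gene of the joint surface, had a mean of 16742 CPM in the articular class and 1058 CPM in the resting class. Ucma, an early cartilage matrix gene, was highest in the resting class, at 5878 CPM. Col10a1, the collagen of hypertrophic cartilage, reached 9215 CPM in the hypertrophic class and 52.9 CPM in the proliferating or prehypertrophic class. Tnmd, which marks tendon, was 2292 CPM in the tendon or ligament class. Postn was higher in the tendon class, at 2606 CPM, than in the perichondrial class, at 1582 CPM, so that marker does not set the perichondrial class apart. Macrophages held a mean of 10076 CPM of Col2a1, which cartilage cells make, against 104468 CPM in the resting class, so low levels of a cartilage gene outside cartilage cells cannot be read as expression. Whether free RNA or doublets gave this signal was not tested. The hypertrophic class was 1 cluster of 1205 cells, led by Col10a1, Ihh and Pth1r. A larger cluster of 2209 cells, led by Mmp9, Mmp13 and Bmp7, had hypertrophic as its best-scoring class but only 2 of that class's 6 markers above the mean and detected, and stayed unnamed, so statements on hypertrophic cells do not cover it. The labels name the cells chondrocytes, whereas perichondrial, tendon, synovial, blood and vessel cells were also found, and tendon was to be removed in dissection.

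**Figure D1:**
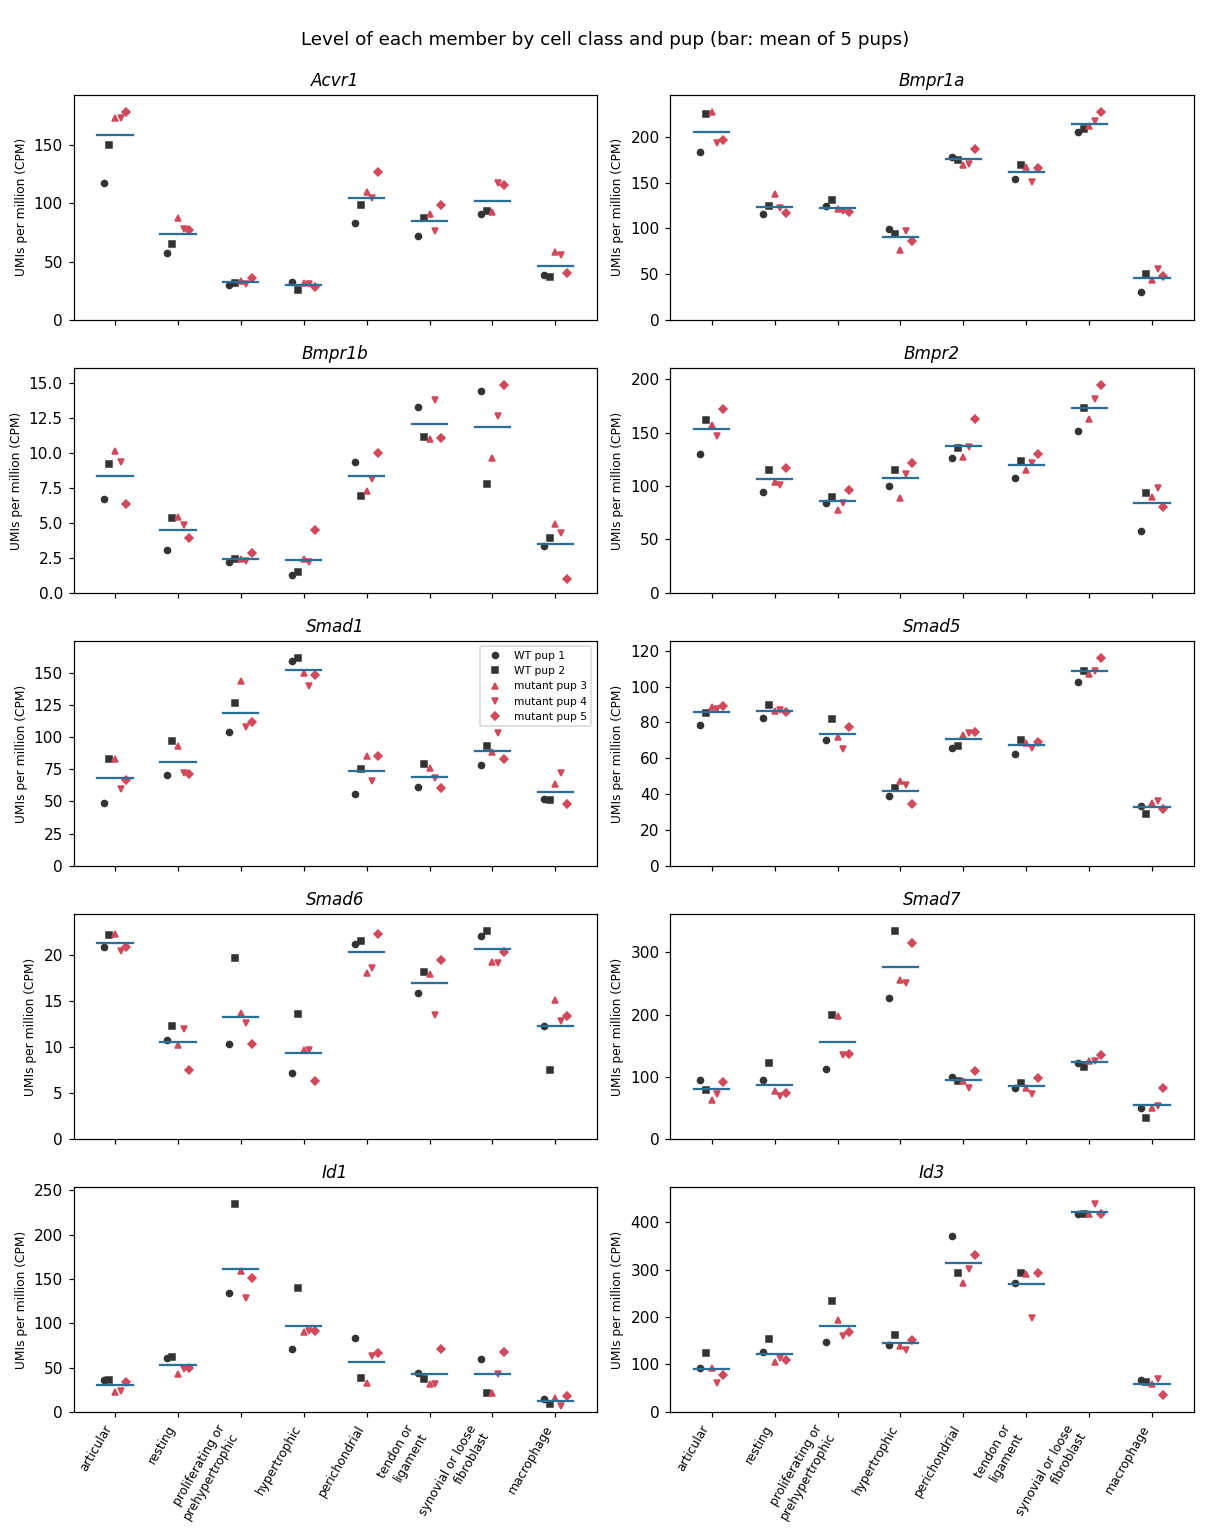
Level of each of the 10 members in 8 cell classes, as CPM of the class (y axis), with 1 point per pup, black for WT and red for mutant, and a bar at the mean of 5 pups. Acvr1 is highest in articular chondrocytes, Smad1 and Smad7 are highest in hypertrophic chondrocytes, Id1 in proliferating or prehypertrophic chondrocytes and Id3 in synovial or loose connective fibroblasts.

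In mean level, all 4 receptors were higher in articular chondrocytes, perichondrial, tendon and synovial cells than in resting, proliferating and hypertrophic chondrocytes of the growth plate. These levels are CPM of the UMIs summed over the cells of a class in a pup, given as mean ± SD over 5 pups. They compare a gene between classes and not 1 gene with another, since genes differ in how well their RNA is captured, and since classes were made from the same cells no test was run. Acvr1 (chr2:58388644-58567157, minus strand, GRCm38), which encodes the type I receptor ALK2, was 159 ± 25.4 CPM in articular chondrocytes (n = 5). Its values there were 118 and 150 CPM in the WT pups and 173, 174 and 179 CPM in the mutant pups. In resting chondrocytes Acvr1 was 73.3 ± 11.9 CPM (n = 5), in proliferating or prehypertrophic chondrocytes 32.3 ± 2.02 CPM (n = 5) and in hypertrophic chondrocytes 29.8 ± 2.81 CPM (n = 5). The articular mean was 5.33 times the hypertrophic mean, and all 5 pups were higher in articular cells. Every hypertrophic value lay below every macrophage value. Whether macrophages make Acvr1 or hold it as background was not tested, so that ratio has an uncertain denominator. The proliferating and hypertrophic values overlapped, from 30.3 to 35.5 and from 25.8 to 32.5 CPM. Perichondrial cells (105 ± 16.1 CPM, n = 5), synovial or loose connective fibroblasts (102 ± 13.1 CPM, n = 5) and tendon or ligament cells (85.1 ± 10.9 CPM, n = 5) lay between the articular and the resting class, with overlapping ranges between neighbours. The macrophages had 46 ± 10.4 CPM (n = 5), and every proliferating value lay below every macrophage value too.

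Bmpr1a (chr14:34410734-34503341, minus strand), the type I receptor ALK3, was 214 ± 8.7 CPM in synovial or loose connective fibroblasts (n = 5) and 205 ± 19.8 CPM in articular chondrocytes (n = 5), and these overlapped. Resting and proliferating chondrocytes did not separate, at 124 ± 8.92 and 123 ± 5.36 CPM (n = 5 each), so the drop that Acvr1 showed between these classes was not seen in Bmpr1a. The lowest cartilage level of Bmpr1a was in hypertrophic cells, 90.4 ± 9.47 CPM (n = 5), with no overlap with the class above it. Bmpr1b (chr3:141837136-142169425, minus strand), the type I receptor ALK6, was sparse throughout. It reached 12.1 ± 1.38 CPM in tendon or ligament cells (n = 5) and 11.9 ± 3.08 CPM in the synovial class (n = 5), and was 2.43 ± 0.256 CPM in proliferating and 2.38 ± 1.27 CPM in hypertrophic chondrocytes (n = 5 each). Those last means lie below the macrophage mean of 3.49 CPM, and whether they are above background was not tested. The hypertrophic value rested on 71 UMIs over all 5 pups. Bmpr2 (chr1:59763400-59879014, plus strand), the type II receptor, varied least of the receptors across the classes, from 173 ± 16.9 CPM in the synovial class (n = 5) to 83.9 ± 16 CPM in macrophages (n = 5). Hypertrophic cells, at 107 ± 12.9 CPM, were above proliferating cells, at 86.2 ± 7.06 CPM, in 5 of 5 pups, the opposite order to that of Bmpr1a.

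Smad1 and Smad5, the Smads that BMP receptors phosphorylate, ran in opposite directions from resting to proliferating to the Col10a1-led hypertrophic chondrocytes. Smad1 (chr8:79338395-79399518, minus strand) was 68.3 ± 14.8 CPM in articular, 80.7 ± 13.4 CPM in resting, 119 ± 16.5 CPM in proliferating and 152 ± 8.94 CPM in hypertrophic chondrocytes (n = 5 each). The 5 hypertrophic values, from 140 to 162 CPM, overlapped those of proliferating cells, from 104 to 144 CPM, in range, although each pup was higher in hypertrophic cells. Smad5 (chr13:56703010-56742377, plus strand) was 85.8 ± 4.33 CPM in articular and 86.2 ± 2.51 CPM in resting cells, 73.3 ± 6.42 CPM in proliferating cells and 41.8 ± 5.06 CPM in hypertrophic cells (n = 5 each). Its hypertrophic values, from 34.7 to 47.2 CPM, lay below all proliferating values, from 65.4 to 81.9 CPM. The ratio of Smad1 to Smad5 UMIs was 0.794 ± 0.155 in articular, 0.935 ± 0.137 in resting, 1.62 ± 0.227 in proliferating and 3.68 ± 0.538 in hypertrophic chondrocytes (n = 5 each). The change of this ratio between classes does not depend on how well either RNA is captured. The unnamed Mmp9-led cluster differed, with 105 CPM of Smad1, 94.8 CPM of Smad5 and 63 CPM of Acvr1.

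The inhibitory Smads also differed from each other. Smad7, which blocks both BMP and TGF-beta signals, was 277 ± 45.9 CPM in hypertrophic chondrocytes (n = 5), with 227 and 335 CPM in the WT pups and 256, 251 and 315 CPM in the mutant pups. All 5 values were above the highest proliferating value, 199 CPM. That peak held for the Col10a1-led cluster, since the Mmp9-led cluster had 128 CPM of Smad7, with pups from 112 to 145 CPM. Smad7 was 156 ± 39.5 CPM in proliferating, 87.2 ± 21.9 CPM in resting and 79.9 ± 13.7 CPM in articular chondrocytes (n = 5 each), and the resting and articular ranges overlapped. Smad6 (chr9:63953076-64022059, minus strand), which acts mainly on BMP receptors, was lowest in hypertrophic cells, at 9.31 ± 2.84 CPM (n = 5), and 21.4 ± 0.858 CPM in articular cells (n = 5). The ratio of Smad7 to Smad6 UMIs went from 3.75 ± 0.723 in articular to 8.37 ± 1.79 in resting, 11.9 ± 1.86 in proliferating and 31.6 ± 10.4 in hypertrophic chondrocytes (n = 5 each), where pups ran from 24.5 to 49.7. The hypertrophic Smad6 level, on 17 to 139 UMIs per pup, lies below the macrophage mean of 12.3 CPM, as does the resting level of 10.5 CPM. The 2 macrophage clusters differed, with 3.33 CPM in that led by Mrc1 and 24.8 CPM in that led by Cd74, so this mean is no measure of background. How much of the resting and hypertrophic Smad6 level is background was not tested, and both ratios have an uncertain denominator. The size of these contrasts depended on how cells were clustered. At Leiden resolution 0.8 the mean log2 ratio of hypertrophic to articular level was 1.09 in place of 1.80 for Smad7, 0.61 in place of 1.18 for Smad1, -0.29 in place of -1.04 for Smad5 and -1.62 in place of -2.40 for Acvr1. Of the alternatives that kept all pups, 12 moved such a ratio by more than 1 SD and 38 did not, and none changed its sign.

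Promoter sequence was looked up for the members in a RefSeq table of GRCm38.p6, which matched 8 of the 10. The 250 bases before the start of Smad6 are shown because Smad6 is a member that BMP signals are known to induce and this window holds no annotated untranslated sequence. They lie at chr9:64022060-64022309 and are read on the minus strand.
Smad6: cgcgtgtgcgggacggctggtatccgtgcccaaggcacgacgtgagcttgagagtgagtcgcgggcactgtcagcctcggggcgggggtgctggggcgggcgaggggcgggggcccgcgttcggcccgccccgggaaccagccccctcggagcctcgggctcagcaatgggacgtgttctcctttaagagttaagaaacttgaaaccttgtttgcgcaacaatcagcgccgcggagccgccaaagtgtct
No letter is in capitals because GGCGCC, a GC-rich element that SMAD1 and SMAD5 can bind, was not found. It was searched on both strands, which for this palindrome are the same. Of all 32851 promoter windows of this length 9.59% held one. Among the members, Bmpr2, Smad5 and Bmpr1a had a window with GGCGCC, in 3 of 12 windows, and unlike the Smad6 window these hold annotated untranslated sequence, the Bmpr2 window throughout. A missing match says only that these letters are not in this window.

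Id1 and Id3, which encode inhibitors of basic helix-loop-helix factors and are among the first genes that BMP signals switch on, differed in where they were highest. Id1 (chr2:152736251-152737410, plus strand) was 161 ± 43 CPM in proliferating or prehypertrophic chondrocytes (n = 5). Its values there were 134 and 235 CPM in the WT pups and 159, 128 and 151 CPM in the mutant pups, with WT pup 2 above the rest. Among the cartilage classes, hypertrophic cells followed with 96.9 ± 25.8 CPM, then resting cells with 52.7 ± 8.54 CPM and articular cells with 30.2 ± 6.83 CPM (n = 5 each). Id1 was thus lowest among the cartilage classes where Acvr1 was highest. Among the 8 classes, which leave out pericytes or smooth muscle cells (878 CPM), Id3 (chr4:136143497-136145755, plus strand) was highest in synovial or loose connective fibroblasts. It was 422 ± 9.45 CPM there (n = 5), with all 5 pups between 417 and 439 CPM. Perichondrial cells (313 ± 38.2 CPM, n = 5) and tendon or ligament cells (270 ± 40.8 CPM, n = 5) came next. Within cartilage Id3 ran in the same order as Id1, from 180 ± 33.8 CPM in proliferating cells to 89.5 ± 23.2 CPM in articular cells (n = 5 each). The ratio of Id1 to Id3 UMIs was 0.888 ± 0.0821 in proliferating chondrocytes and 0.101 ± 0.0499 in synovial or loose connective fibroblasts (n = 5 each).

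**Figure D2:**
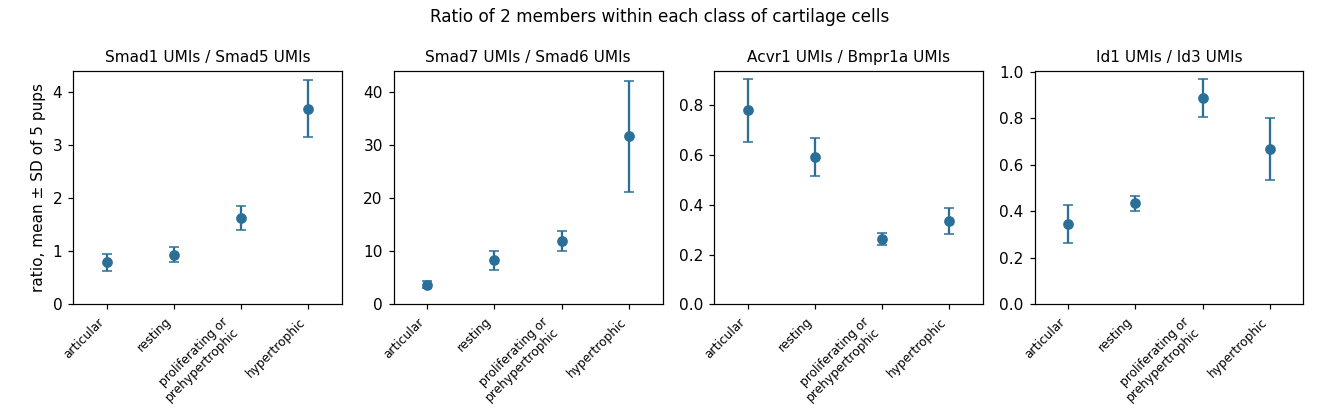
Ratio of the UMIs of 2 members (y axis, mean ± SD of 5 pups) in articular, resting, proliferating or prehypertrophic and hypertrophic chondrocytes. Smad1 over Smad5 goes from 0.794 to 3.68 and Smad7 over Smad6 from 3.75 to 31.6, whereas Acvr1 over Bmpr1a is highest in articular cells, at 0.778.

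Members also varied between clusters of 1 class, for which each value pools the cells of all pups. In resting chondrocytes a cluster led by Arc, Sfrp5 and Plet1 had 223 CPM of Smad7 and 114 CPM of Id1, whereas the other 5 resting clusters had 64 to 80.1 CPM of Smad7 and 28 to 63.4 CPM of Id1. The same Arc-led cluster was the lowest of the resting clusters in Acvr1, at 36.3 CPM, against 101 CPM in the cluster led by Chil1, Sfrp1 and Ppp1r3c. Perichondrial clusters differed most in Id1, with 22.6 CPM in the cluster led by Ostn, Igfbp3 and Ccdc3 and 100 CPM in that led by Podn, Cilp2 and Hlf. In tendon or ligament cells Bmpr1b ranged from 6.45 CPM in the cluster led by Penk to 28 CPM in a cluster led by Chodl, Cilp and Nnat, but the pups of the latter ran from 11.4 to 60.2 CPM and so overlapped those of other tendon clusters. Outside cartilage, Id3 was 878 CPM in pericytes or smooth muscle cells, Bmpr2 309 CPM and Smad1 206 CPM in blood vessel endothelium, and Smad7 488 CPM in a cluster of 55 mast cells. Some of these clusters are small, and some had under 20 cells in a pup.

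The genes whose level across the 8 classes was most like each member were found by Pearson's r of log2(CPM + 1) over class means, out of 8288 genes, and with 8 points that share the same libraries these are descriptions. They were Garem1 (r = 0.986), Fap (r = 0.985) and Fhip2a (r = 0.981) for Acvr1. For Bmpr1a they were Zfp532 (r = 0.991), Slc30a4 (r = 0.989) and Adcy6 (r = 0.980). Bmpr1b was followed by Rhoq, Ltbp4 and Palmd, with r from 0.988 to 0.992, and Bmpr2 by Tef, Ttc19 and Slc44a1, with r from 0.956 to 0.963. For Smad1 they were Tmem151a, Hebp2 and Glo1 (0.984 to 0.987), for Smad5 Prpf40b, Scaper and Zfp280d (0.969 to 0.975) and for Smad6 Ctbp1, Timm29 and Nfatc3 (0.957 to 0.976). Smad7 was followed by Slc38a4 (r = 0.989), Pitpnb (r = 0.982) and Smad1 (r = 0.979), the 1 case of a member among the genes nearest to another. Over 39 clusters in place of 8 classes, r between Smad7 and Smad1 was 0.134, so this likeness was not seen at the level of clusters. Cad, Irs1 and Ttll5 were nearest to Id1 (0.972 to 0.981), and Lama2, Gpc3 and Myorg to Id3 (0.951 to 0.956).

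Between the labels and over all cells, Acvr1 was 64.9 and 67.4 CPM in the WT pups and 85.7, 90.6 and 91.2 CPM in the mutant pups, after TMM scaling. The ratio of the means was 1.35, or 0.43 on the log2 scale. This contrast chose the genes, so it is not evidence about them. Among the other 9 members, every mutant pup was above both WT pups in 3, Bmpr1a, Bmpr1b and Smad5, where 10.1% of the 21024 genes did so, and nothing is read from this count. None of the 10 had every mutant pup below both WT pups, against 12.4% of all genes. Smad5 was 72 and 73.6 CPM in the WT pups and 77.2, 83.8 and 83.7 CPM in the mutant pups. Bmpr1a was 141 and 145 CPM against 155, 158 and 150.1 CPM, and Bmpr1b 5.98 and 5.74 CPM against 6.52, 7.81 and 6 CPM. The gap between the labels in Bmpr1b is small beside the spread among the mutant pups. Bmpr2, Smad1, Smad6, Smad7, Id1 and Id3 overlapped between the labels. Id1 ranged from 56.1 CPM in mutant pup 3 to 85.5 CPM in WT pup 2, with mutant pup 5 at 82.6 CPM. Markers of blood cells moved with the label over all cells. The 8 erythroid markers summed to 1312 and 1323 CPM in the WT pups and 870.1, 238 and 249.8 CPM in the mutant pups, and the 8 granulocyte markers to 594 and 197 CPM against 124, 15.6 and 97.1 CPM, with none of either list at 0. Of the 18 dissociation response genes, 5 were lower in every mutant pup, where 19.8% of all genes were. These marker sums and counts use plain CPM, without TMM scaling. The part of these in the differences was not tested.

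These differences depended on scaling. With plain CPM, the log2 difference of Acvr1 was 0.33 and that of Bmpr1a 0.01, and Acvr1 was the 1 member whose pups still did not overlap. With that scaling every mutant pup was above both WT pups in 3.84% of the 21024 genes and below both in 19.8%, and the median log2 difference of all genes was -0.119 with plain CPM and -0.017 with TMM scaling. When each class was given the same share of UMIs in every pup, Acvr1 was 64.5 and 75.1 CPM in the WT pups and 86, 85 and 91.6 CPM in the mutant pups, a log2 difference of 0.33, the same as with plain CPM over all cells to 2 decimals. At fixed shares Id3 was 204 and 233 CPM against 202, 179 and 200.3 CPM, and Bmpr1b was 6.11 and 6.37 CPM against 6.38, 6.91 and 6.6 CPM.

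**Figure D3:**
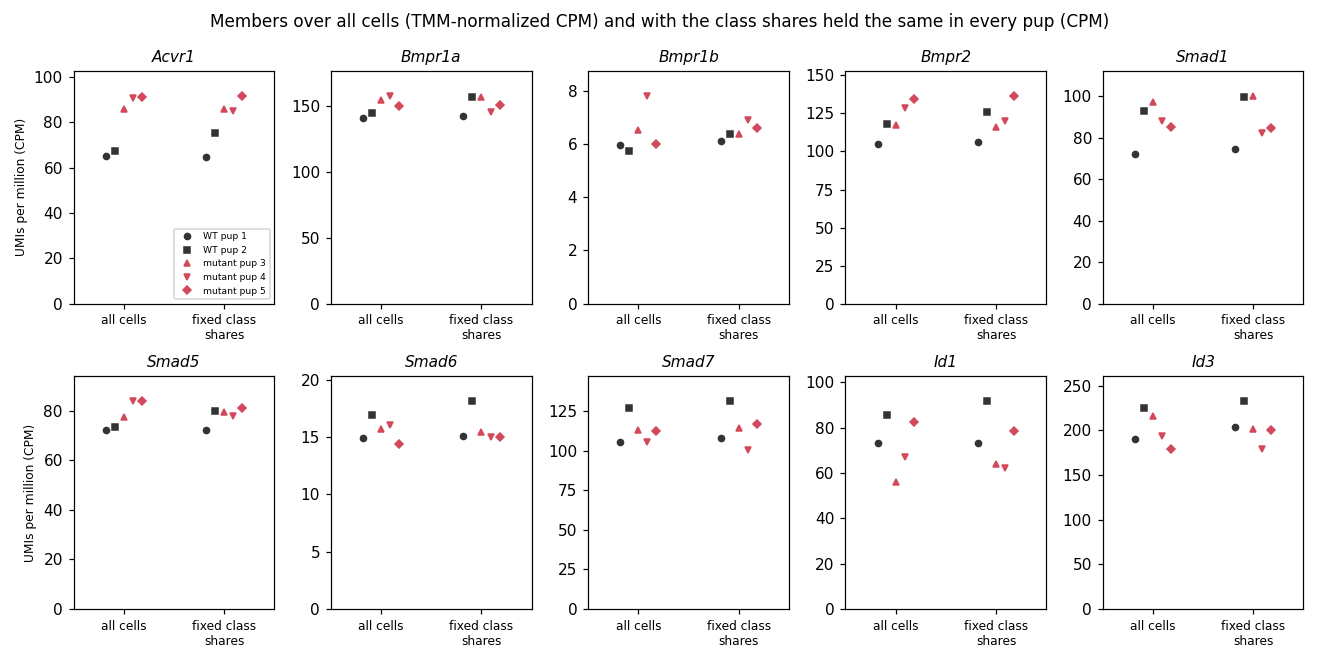
CPM of each member (y axis, from 0) over all cells after TMM scaling (left in each panel) and with class shares held the same in every pup (right), 1 point per pup, black for WT and red for mutant. The 3 mutant pups lie above both WT pups in Acvr1 on both sides, while Id1 and Smad7 overlap.

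Within a class, edgeR's quasi-likelihood test on UMIs summed per pup called none of the 9 tested members in any of 6 classes, at an adjusted p under 0.05. Over 54 pairs of a tested member and a class, 4 had an unadjusted p under 0.05, namely Smad7, Id1 and Id3 in resting and Id3 in articular chondrocytes, and DESeq2's Wald test called 0 as well. The same test called no gene of any kind in these classes, where 422 to 1205 genes per class had an unadjusted p under 0.05, and DESeq2 called 0 to 48 genes per class. Every mutant pup was above both WT pups in 12 of 60 pairs, 5 of which were Acvr1, and in 7 of the 54 pairs without it (13%). Every mutant pup was below both WT pups in 6 of the 54 pairs (11.1%). The higher count depended on scaling. With plain CPM, an alternative added after seeing the data, it was 6 of 60 pairs, 3 of them Acvr1, where 6.16% of all pairs of a gene and a class did so, and the lower count was again 6, where 16.6% did so. The 6 higher pairs were Acvr1 in articular, resting and perichondrial cells, Smad5 in articular and perichondrial cells and Bmpr1b in hypertrophic cells. With TMM scaling, the shares without Acvr1 are near the shares among all genes tested, which are given class by class below. Values of members within a class are CPM after TMM scaling unless plain CPM is named, while sums of marker and dissociation response genes are plain CPM.

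In articular chondrocytes 0 of 9 members were called, as were 0% of 14040 genes. Every mutant pup was above both WT pups in Acvr1, which chose the set. Of the other 9 members only Smad5 lay so, where 11.3% of genes did. Every mutant pup was below both WT pups in 1, Id3, where 13% of genes did so. Acvr1 was 120.5 and 139.8 CPM in the WT pups and 165, 186 and 186 CPM in the mutant pups, a log2 difference of 0.46. Smad5 was 80.4 and 79 CPM against 84.2, 93.6 and 93 CPM, a log2 fold change of 0.18 ± 0.10 (SE; adjusted p = 0.752 by edgeR). Id3 was 94.5 and 115 CPM against 88, 65 and 81 CPM, so that the mutant pup 3 lay close to WT pup 1. Its log2 fold change was -0.42 ± 0.14 (SE; adjusted p = 0.749 by edgeR). Without a filter on low counts the adjusted p of Id3 was 0.038, and with another clustering seed its log2 fold change was 0.043. The 18 dissociation response genes described below summed in articular cells to 12719 and 8937 CPM in the WT pups and 7224, 8212 and 9997 CPM in the mutant pups, with 3 of the 18 lower in every mutant pup. These are plain CPM, with which 2077 of 14040 genes lay lower in every mutant pup. The 8 erythroid markers summed there to 38.9 and 86.8 CPM against 25.5, 7.9 and 16.2 CPM. The part of both in the result was not tested.

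The resting class, named from markers of the reserve cells of the growth plate, also held a cluster led by the cell cycle genes Top2a, Stmn1 and Prc1, with 9.64 to 17.5% of its cells per pup. In the whole class Acvr1 and Bmpr1a lay higher in every mutant pup and Smad7, Id1 and Id3 lay lower in every mutant pup. Of the 9 members without Acvr1, which chose the set, only Bmpr1a lay higher and 3 lay lower, where 12.3% and 13.2% of 15941 genes did so. Called were 0 of 9 members and 0% of genes. At Leiden resolution 0.8 the class had 0 members lower in every mutant pup and 0 with an unadjusted p under 0.05, with log2 fold changes of -0.15 for Smad7, -0.14 for Id1 and -0.22 for Id3. Acvr1 was 57.1 and 61.5 CPM in the WT pups and 85.5, 83 and 80.7 CPM in the mutant pups. With the Arc-led cluster included this was the largest log2 difference of Acvr1 in the 6 classes, 0.49. Smad7 was 94.5 and 115 CPM against 75, 72.5 and 76.6 CPM. Its log2 fold change was -0.49 ± 0.11 (SE; adjusted p = 0.465 by edgeR). Id1 was 60.6 and 58.6 CPM against 41.7, 51.2 and 51.1 CPM, a log2 fold change of -0.31 ± 0.11 (SE; adjusted p = 0.648 by edgeR). Id3 was 125 and 145 CPM against 102, 119 and 114 CPM, with a log2 fold change of -0.28 ± 0.11 (SE; adjusted p = 0.652 by edgeR). Bmpr1a was 115 and 117 CPM against 134, 129.97 and 122 CPM, a log2 fold change of 0.15 ± 0.09 (SE; adjusted p = 0.731 by edgeR). Its pups overlapped with plain CPM, where the log2 fold change was 0.07. None of these passed the test over all genes.

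The make-up of the resting class also differed between the labels. The Arc-led cluster, in which Smad7 and Id1 were highest, held 14.1% (410 of 2903) and 17.8% (502 of 2817) of the resting cells in the WT pups and 5.43% (164 of 3019), 0.576% (23 of 3994) and 6.08% (229 of 3764) in the mutant pups. The exact binomial 95% intervals, which cover counting error only, were 12.9 to 15.4% in WT pup 1 and 0.365 to 0.863% in mutant pup 4. Arc is an immediate early gene, and the 18 dissociation response genes, which include Fos, Jun and Egr1, summed in resting cells to 21784 and 20369 CPM in the WT pups and 12335, 16765 and 20372 CPM in the mutant pups. Of these 18 genes, 7 had every mutant pup below both WT pups in resting cells and 0 had every mutant pup above. With the same plain CPM, 3125 of 15941 genes lay below and 901 above. In the same cells the 8 erythroid markers summed to 27.3 and 52.2 CPM against 15, 8.33 and 11.5 CPM, and the 8 skeletal muscle markers to 15.8 and 21.7 CPM against 8.32, 6.03 and 7.99 CPM. The part of these in the result was not tested. With the Arc-led cluster left out, a choice made after seeing these values, the log2 fold change of Smad7 was -0.19 (adjusted p = 0.871 by edgeR) and that of Id1 -0.13 (adjusted p = 0.912 by edgeR), and the pups of both genes overlapped after TMM scaling. With plain CPM, Smad7 without that cluster was 82.9 and 73.6 CPM in the WT pups and 59.5, 68.1 and 67.3 CPM in the mutant pups, which did not overlap, so whether its labels separate there depended on the scaling. Id3 was then -0.27 (adjusted p = 0.866 by edgeR), with the mutant pups still lower, and Acvr1 was 0.38, with the mutant pups still higher. That is below the 0.46 of Acvr1 in articular cells, so its resting difference was the largest only with the Arc-led cluster kept.

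**Figure D4:**
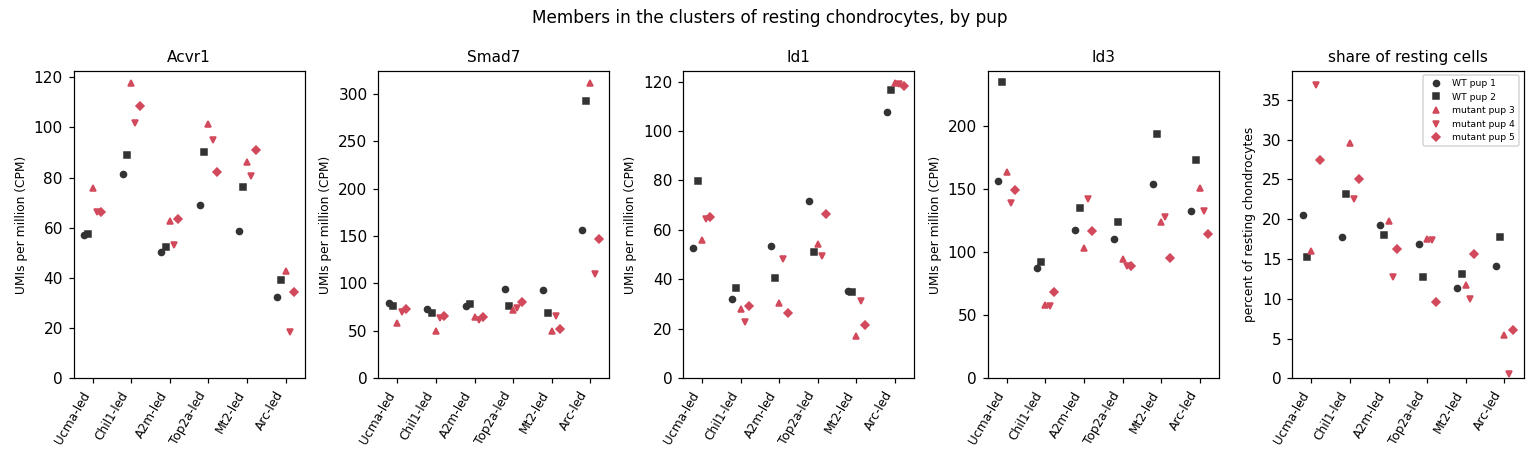
CPM of Acvr1, Smad7, Id1 and Id3 (y axes, from 0) in the 6 clusters of resting chondrocytes, named by their leading gene, and the percentage of each pup's resting cells in each cluster (right panel), 1 point per pup, black for WT and red for mutant. Smad7 and Id1 are highest in the Arc-led cluster, which holds 14.1 and 17.8% of resting cells in the WT pups and 0.576 to 6.08% in the mutant pups.

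Inside single resting clusters the values were read as plain CPM, which over all cells lay lower in every mutant pup for more genes than TMM scaling did, so no count of separated clusters is given. The log2 ratio of the label means of Acvr1 was 0.22 to 0.36 in the 5 clusters other than the Arc-led one and -0.17 in that one. In the Chil1-led cluster Acvr1 was 81.2 and 89.1 CPM in the WT pups and 118, 102 and 109 CPM in the mutant pups. Smad7 in that cluster was 73.5 and 68.7 CPM against 49.8, 63.9 and 66 CPM. In that cluster Id3 was 87.4 and 92.7 CPM against 58.2, 57.4 and 68.1 CPM. Other clusters did not all separate so. Id3 in the A2m-led cluster was 118 and 135 CPM against 104, 142 and 117 CPM. The Top2a-led cluster had 69.3 and 90 CPM of Acvr1 against 101, 95 and 82.4 CPM. Its Smad7 was 93.9 and 75.9 CPM against 71.5, 74.5 and 80.5 CPM. In the Arc-led cluster Id1 was 108 and 116 CPM against 119, 119 and 118 CPM, and Smad7 ranged from 110 CPM in mutant pup 4, on 23 cells, to 311 CPM in mutant pup 3.

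In proliferating or prehypertrophic chondrocytes 0 of 9 members and 0% of 15543 genes were called. Every mutant pup lay above both WT pups in Acvr1, which chose the set. Of the other 9 members only Bmpr1b lay above and only Bmpr1a below, where 9.93% and 12.6% of genes did so. All 3 gaps were small, and none was stable. The pups of Acvr1 overlapped with plain CPM and with doublets removed, and its log2 difference was -0.09 at Leiden resolution 0.8. The log2 fold change of Bmpr1a was positive under 4 alternatives, from 0.0057 to 0.055, and its pups overlapped with RLE scaling. That of Bmpr1b was negative under 4 alternatives, from -0.0076 to -0.36. Acvr1 was 30.5 and 30 CPM against 33, 32.3 and 35.8 CPM. Bmpr1a was 125 and 124 CPM against 121, 123 and 119 CPM, a log2 fold change of -0.04 ± 0.10 (SE; adjusted p = 0.943 by edgeR). Bmpr1b was 2.23 and 2.33 CPM against 2.39, 2.33 and 2.88 CPM, on 45 to 76 UMIs per pup, with a log2 fold change of 0.15 ± 0.23 (SE; adjusted p = 0.910 by edgeR). The Id genes and Smad7, which are high in this class, overlapped, and WT pup 2 was the highest in both Id1, at 223 CPM, and Id3, at 221 CPM.

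In hypertrophic chondrocytes, with 100 to 414 cells per pup, 0 of 9 members and 0% of 11810 genes were called. Bmpr1b lay higher in every mutant pup and Smad1 lower, 1 member each, where 8.59% and 10% of genes did so. Bmpr1b was 1.31 and 1.45 CPM against 2.44, 2.21 and 4.56 CPM, on 7 to 27 UMIs per pup, a log2 fold change of 1.03 ± 0.49 (SE; adjusted p = 0.999 by edgeR). Smad1 was 160.4 and 159 CPM against 150.1, 141 and 151 CPM, a log2 fold change of -0.12 ± 0.11 (SE; adjusted p = 0.999 by edgeR). Acvr1 was 32.7 and 25.3 CPM against 31.7, 31.4 and 28.5 CPM, and these overlapped. With TMM scaling and this clustering the other 5 classes did not overlap in Acvr1, but with plain CPM, and with doublets removed, its pups separated in 3 of the 6 classes, articular, resting and perichondrial. Smad7 also overlapped, with WT pup 2 at 329 CPM the highest and WT pup 1 at 229 CPM the lowest.

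In perichondrial cells, the sheath around the cartilage, 0 of 9 members and 0% of 13435 genes were called. Acvr1 and Smad5 were higher in every mutant pup, which is 2 members where 12.2% of genes did so, and none was lower in every mutant pup, where 13.4% of genes were. Acvr1 was 82.1 and 96.2 CPM against 109, 111 and 126 CPM, a log2 difference of 0.37. Smad5 was 64.9 and 64.8 CPM against 72.6, 78.9 and 73.7 CPM, a log2 fold change of 0.21 ± 0.10 (SE; adjusted p = 0.723 by edgeR). Id1 was widely spread here, at 82.1 and 37.3 CPM in the WT pups and 32.3, 66.5 and 65.6 CPM in the mutant pups, so that WT pup 2 and mutant pup 3 stood below the other pups.

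In tendon or ligament cells 0 of 9 members and 0% of 14235 genes were called. Acvr1, which chose the set, was higher in every mutant pup. Of the other 9 members Bmpr1a and Smad5 were too, where 10% of genes did so. None was lower, where 11.4% of genes were. Acvr1 was 71 and 81.1 CPM against 86.9, 86.1 and 101 CPM, a log2 difference of 0.26. Smad5 was 61.1 and 65.1 CPM against 65.8, 74.6 and 70.4 CPM, a log2 fold change of 0.16 ± 0.10 (SE; adjusted p = 0.951 by edgeR). Bmpr1a was 152 and 157 CPM against 159, 169.9 and 168 CPM, a log2 fold change of 0.10 ± 0.10 (SE; adjusted p = 0.951 by edgeR). None of these 3 separations was stable. The pups of all 3 genes overlapped with plain CPM, at Leiden resolution 2.5, with doublets removed and at a mitochondrial limit of 20%, and Acvr1 alone still separated without an upper limit on genes per cell. With plain CPM the log2 fold change of Bmpr1a here was -0.0085. With TMM scaling and the main clustering Bmpr2 and Smad6 overlapped between the labels in all 6 classes. Bmpr2 lay higher in every mutant pup in articular cells with DESeq2, at Leiden resolution 2.5 and without an upper limit on genes per cell. Smad6 lay lower in every mutant pup in 1 class at resolution 2.5, with clustering seed 2, with doublets removed and at a mitochondrial limit of 20%. Without an upper limit on genes per cell it did so in 2 classes.

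**Figure D5:**
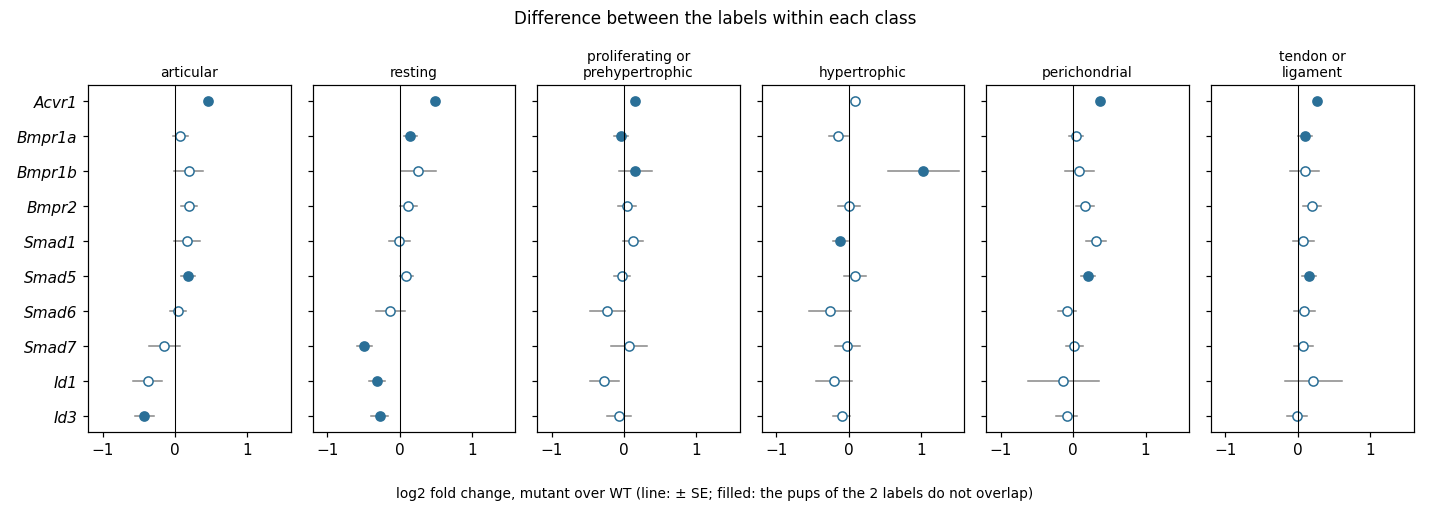
Log2 fold change of each member, mutant over WT (x axis), in 6 classes, with a line of ± 1 SE and a filled point where the 3 mutant pups all lie on 1 side of both WT pups. Acvr1, shown without an error since it was not tested, is filled in 5 of the 6 classes with the TMM scaling plotted, against 3 with plain CPM. Smad7, Id1 and Id3 are filled on the lower side in resting chondrocytes.

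The other genes of the BMP and TGF-beta pathways were read from a list of 68 genes in 5 groups, of which 56 to 65 could be tested per class. The list was chosen with earlier results of these data known. Its counts, set beside the shares of all genes, are therefore descriptions only. None passed the test in either direction in any class, while DESeq2 called 1, Tgfb2 in resting chondrocytes. An unadjusted p under 0.05 was found for 13 of 64 in resting cells, where 1205 of all 15941 genes had one, and for 10 of 63 in perichondrial cells, where 902 of 13435 had one. In the other classes it was 8 of 63 in articular, where 855 of 14040 genes had one, 3 of 64 in proliferating or prehypertrophic (901 of 15543), 5 of 56 in hypertrophic (422 of 11810) and 6 of 65 in tendon or ligament cells (483 of 14235). Every mutant pup was above both WT pups in 20 of the 63 tested in perichondrial cells and below both in 5, where 12.2% and 13.4% of all genes were. In articular cells it was 16 higher and 5 lower of 63, against 11.3% and 13% of all genes, and in resting cells 15 higher and 5 lower of 64, against 12.3% and 13.2%. Tendon or ligament cells had 14 higher and 2 lower of 65, against 10% and 11.4%, and hypertrophic cells 6 higher and 1 lower of 56, against 8.59% and 10%. Proliferating or prehypertrophic cells had fewer higher than lower, 2 and 6 of 64, against 9.93% and 12.6%. That order was not stable, and it turned when cells were filtered or clustered otherwise, with 60 to 64 genes tested. It was 12 higher and 1 lower at Leiden resolution 2.5, 13 and 2 with clustering seed 2, and 9 and 7 at resolution 0.8. Without an upper limit on genes per cell it was 10 and 2. It was 8 and 2 at a mitochondrial limit of 20%, and 7 and 6 with doublets removed. The counts of each class in the main clustering also depended on scaling. With plain CPM they were 14 higher and 5 lower in perichondrial, 8 and 4 in articular and 9 and 7 in resting cells. They were 6 and 2 in tendon or ligament, 6 and 2 in hypertrophic and 1 and 6 in proliferating or prehypertrophic cells. Of all pairs of a gene and a class, 6.16% were then higher and 16.6% lower. With TMM scaling the largest group, of 17 Smads and their regulators, such as Smad4, Smurf1 and Ski, made up 8 of the 20 in perichondrial, 7 of the 16 in articular and 8 of the 15 in resting cells. The list of 10 other targets, which holds Id2, Id4 and Runx2, had a median log2 fold change of -0.34 in resting cells and 0.27 in perichondrial cells, against -0.0053 and -0.0015 over all genes tested. In resting cells 3 of the 10 were positive, and Id2 was at 0.19, Id4 at -0.32 and Runx2 at -0.0081. The lowest estimates there were of sparse genes, with Hey1 at -0.92 (0.51 to 2.91 CPM per pup) and Dlx3 at -0.64 (0.58 to 2.28 CPM). None of the 10 targets lay higher in every mutant pup in resting cells and 2 lay lower, whereas in perichondrial cells 4 lay higher and 1 lower. In articular cells, with 9 of the 10 tested, 1 lay higher and 3 lower, with a median of -0.04. In proliferating or prehypertrophic cells 0 lay higher and 2 lower (median 0.09), in hypertrophic cells 0 and 1 of 9 (median -0.04), and in tendon or ligament cells 2 and 0 (median 0.19).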

How the data were processed

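Single cells from 2 WT and 3 mutant pups were captured on the BD Rhapsody platform. The deposited files hold raw UMI counts for each cell, which the authors mapped to mm10 per the labels, and the aligner and its settings are not given in the sources used here. Groups were taken from the genotype label. The members and lists were chosen with earlier results of these data known.

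Cells with 200 to 6000 genes and at most 10% mitochondrial UMIs were kept. Counts were turned into Pearson residuals centred within each pup, and 3000 variable genes, without the members and lists, were reduced to 50 principal components, joined by 20 neighbours (scanpy 1.11.5) and clustered with leidenalg (0.10.2) at resolution 1.5. Clusters were named from marker lists. Scrublet's automatic limit marked 0 cells in 2 libraries, so a score limit of 0.3, chosen after seeing the data, marked doublets in an alternative, and none were removed otherwise.

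UMI counts were summed per pup and class and tested with edgeR (4.0.16; quasi-likelihood, TMM, filterByExpr, 1 fit per class, Benjamini-Hochberg adjustment over all genes of the class, threshold 0.05) in R (4.3.3), with DESeq2 (1.42.0) as an alternative. Cells were not used as replicates. The fit was tested on simulated data. All 10 members are named. Statistics are given where WT and mutant pups had no overlap or the unadjusted p was under 0.05. The 3 genes most like each member were taken among genes with at least 20 CPM in 1 class. The 2 against 3 pups are separate animals of 1 litter. Depth was 117746735 to 183322632 UMIs per library.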

Additional observations from a re-analysis of the deposited data

Results flagged for a closer look

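Bmpr1a, the type I receptor, lay higher in every mutant pup than in both WT pups in resting chondrocytes and in tendon or ligament cells, and lower in every mutant pup in proliferating or prehypertrophic chondrocytes, with TMM scaling. With plain CPM the pups overlapped in resting cells, where the log2 fold change was 0.07, and in tendon or ligament cells, where it was -0.0085. The resting pups also overlapped without the Arc-led cluster (0.08), and the tendon pups at Leiden resolution 2.5, with doublets removed and at a mitochondrial limit of 20%. In proliferating or prehypertrophic cells its log2 fold change was -0.04 and became positive under 4 alternatives (0.037 at Leiden resolution 0.8, 0.0057 at 2.5, 0.055 with clustering seed 2 and 0.026 with doublets removed), so its direction there was not stable. The difference of the effects was 0.19 on the log2 scale between resting and proliferating or prehypertrophic cells, where the log2 ratio of the classes was -0.12 and -0.09 in the WT pups and 0.15, 0.08 and 0.03 in the mutant pups (exact permutation test, p = 0.1, the smallest p that 10 groupings can give). Between tendon or ligament and proliferating or prehypertrophic cells the difference of the effects was 0.15 on the log2 scale, with 0.28 and 0.34 in the WT pups and 0.39, 0.46 and 0.50 in the mutant pups (exact permutation test, p = 0.2). Neither passed a threshold of 0.05, which 2 against 3 pups cannot reach. These pairs of classes were chosen because the pups of Bmpr1a separated in opposite directions in them. That choice puts every mutant ratio above both WT ratios, so a p at or next to the smallest was fixed in advance. Nothing is read from these p-values.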

How the results depend on the processing

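Leaving out the filter on low counts gave 1 called member, Id3 in articular chondrocytes, and 6 called pathway genes, against 0 and 0, and DESeq2's Wald test called 1 pathway gene. The 12 cases of a member with every mutant pup higher became 6 with plain CPM in place of TMM, an alternative added after seeing the data, and 15 to 29 when a pup was left out, with 29 without WT pup 2 and 20 without mutant pup 3. The 6 cases with every mutant pup lower became 6 to 14, with 14 without WT pup 1 and 12 without WT pup 2. Fewer pups overlap less often by construction, and in articular cells the genes with every mutant pup higher went from 1584 of 14040 to 3721 of 14231 without WT pup 2. Called members stayed at 0 and called pathway genes at 0 to 1 when a pup was left out, the 1 without WT pup 2. The lower cases fell to 3 at Leiden resolution 0.8 and to 3 with clustering seed 2, each over 5 classes. The log2 fold change changed sign for Id3 in articular chondrocytes (0.043 with seed 2), for Bmpr1a in proliferating or prehypertrophic chondrocytes (0.037 at resolution 0.8, 0.0057 at 2.5, 0.055 with seed 2, 0.026 with doublets removed), for Bmpr1b there (-0.36 at resolution 0.8, -0.0076 with doublets removed, -0.028 without an upper limit on genes per cell, -0.17 at a mitochondrial limit of 20%), for Bmpr1b in hypertrophic chondrocytes (-0.19 at resolution 0.8) for Smad1 there (0.011 at a mitochondrial limit of 20%) and for Bmpr1a in tendon or ligament cells (-0.0085 with plain CPM), and the cause was not tested. Of 269 alternative fold changes 12 of tested members changed sign as listed, 1 gained a call, 8 of Acvr1 moved by more than 1 SD and 248 did none of these. The 8 include Acvr1 in proliferating or prehypertrophic chondrocytes at resolution 0.8, which changed sign too. Of 110 all-cell differences, 98 moved by less than 1 SD. Resolution 0.8 gave no perichondrial class, and seed 2 and no upper gene limit left under 50 hypertrophic cells in a pup, so these gave no value there. No paired analysis was possible because each pup has its own number in the labels. Bmpr1b is limited by depth.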
